A study of Mus musculus with 8 samples.

Results

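The transcription factor p53, encoded in the mouse by Trp53, and 9 of its target genes, Cdkn1a, Mdm2, Ccng1, Bax, Bbc3, Phlda3, Trp53inp1, Eda2r and Zmat3, were examined in liver RNA of mice that lack Brap in hepatocytes. The 10 genes were taken by symbol from the deposited table of 24451 genes. The selection rule uses no measured values, but the genes were proposed with earlier results of these data known. All 10 reached the mean normalized count of 5 over the 8 livers that was required for testing, as did 15352 genes in all. Bulk RNA of the left liver lobe had been sequenced from 4 Brap LKO mice (Brap fl/fl; Alb Cre+) and from 4 Brap F/F control mice (Brap fl/fl; Alb Cre-). Both groups carried the floxed Brap allele on the C57BL/6 strain (C57BL/6J for the floxed line in the study's methods), and all mice were studied at 18 wk of age after a fast of 6 h. In Brap LKO mice the Albumin promoter drives Cre, so recombination is directed at hepatocytes. Whether other cells of the lobe keep Brap was not measured here. The groups therefore also differ in the presence of the Cre transgene, and the effects of Cre and of the deletion cannot be told apart.

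In an unstressed cell p53 is made and quickly degraded, because the ubiquitin ligase MDM2 binds it and marks it for the proteasome. DNA damage, oncogene activity and other stresses release p53 from MDM2. It then binds pairs of short half-sites near its target genes, which stop the cell cycle, start apoptosis, aid DNA repair or, as Mdm2 does, shut p53 off again. Most of this control acts on the protein, so the level of Trp53 RNA is a poor guide to p53 activity, and the RNA of the target genes is the usual readout. In the liver, Cdkn1a also answers to signals other than p53, among them fasting and circadian cues.

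The p53 half-site is a consensus of 10 bases. It was searched in the RefSeq promoter windows of the GRCm38.p6 assembly, each of 300 bases, from 250 bases before to 50 bases after a transcription start. The consensus reads alike on both strands, so 1 search covers both. Of all 32851 windows, 8.36% held at least 1 half-site, and 0.0731% (24 windows) held a full site, meaning 2 exact half-sites with at most 13 bases between them. Windows were found for 8 of the 10 members (11 windows; Trp53inp1 and Zmat3 were not searched), and 5 of the 8 had a half-site. The stretches that hold these are shown because p53 binds DNA through such sequences. Each is written 5′ to 3′ on the strand of the gene, upstream of its start, with the half-sites in capitals.
Cdkn1a, chr17:29090876-29090952, + strand: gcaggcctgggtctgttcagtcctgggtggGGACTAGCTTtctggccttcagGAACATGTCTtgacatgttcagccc
Bax, chr7:45467075-45467129, - strand: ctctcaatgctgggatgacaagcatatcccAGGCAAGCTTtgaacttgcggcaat
Ccng1, chr11:40755447-40755501, - strand: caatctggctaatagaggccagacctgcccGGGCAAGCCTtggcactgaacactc
Mdm2, chr10:117710920-117710974, - strand: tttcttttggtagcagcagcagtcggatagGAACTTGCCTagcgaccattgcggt
Trp53, chr11:69580254-69580308, + strand: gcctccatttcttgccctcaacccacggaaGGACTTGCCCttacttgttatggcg

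Among the 8 members with a window, Cdkn1a alone held a full site of 2 exact half-sites. They lay 73 and 51 bases before the more upstream of its 2 annotated starts, with 12 bases between them, and the window of the other start, 2790 bases downstream, held none. The half-site 51 bases before the start was also followed, with 0 bases between them, by tgacatgttc, a further one with a single mismatch. In Bax and Ccng1 the exact half-site was preceded by a second one with a single mismatch, with 1 base between them in Bax and 0 in Ccng1. Sites with at most 1 mismatch were found in 1.09% of all windows. The half-sites of Mdm2 and Trp53 stood alone, 186 and 75 bases before the start. The windows of Bbc3, Phlda3 and Eda2r held no half-site. These matches describe letters in a window and were not tested against binding.

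Each library held between 26280884 and 33313914 reads on genes, and values below are normalized counts, the reads of a gene divided by a size factor for its liver. The deposited values are whole-gene counts, so the loss of Brap exons 2 and 3 was not measured here. Brap stood at 3641 to 4203 normalized counts in Brap LKO and at 3994 to 4410 in Brap F/F livers (adjusted p = 0.631, limma). Groups were compared with limma on log2(normalized count + 1), with p-values adjusted over all 15352 genes (Benjamini-Hochberg) and a threshold of 0.05. Of these genes, 118 (0.769%) passed, with 102 (0.664%) higher and 16 (0.104%) lower in Brap LKO livers. The expression of hepatocyte markers was present throughout, with 2224321 to 3097544 normalized counts over 8 markers in Brap LKO and 2836892 to 4298291 in Brap F/F livers. Their median log2 fold change was -0.38, with 6 of 8 negative, 2 of them at an unadjusted p under 0.05 and none past the threshold.

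None of the 10 members passed the threshold, against 0.769% of all tested genes. At an unadjusted p under 0.05 there were 2 members, Trp53 and Ccng1, beside 15.8% of all tested genes. The median log2 fold change of the members was -0.04, beside -0.01 for all tested genes, and 3 members had a positive and 7 a negative value. The edgeR quasi-likelihood test on the recovered reads called none of the members (0.795% of all genes) and had 3 at an unadjusted p under 0.05. DESeq2 on the same reads called none either (4.15% of the genes to which it gave an adjusted p), also with 3 at an unadjusted p under 0.05. In 2 members, Trp53 and Ccng1, the groups did not overlap, beside 9.87% of all tested genes. The members differed in spread, from 1.20-fold between the highest and the lowest liver for Ccng1 to 29.7-fold for Cdkn1a.

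**Figure D1:**
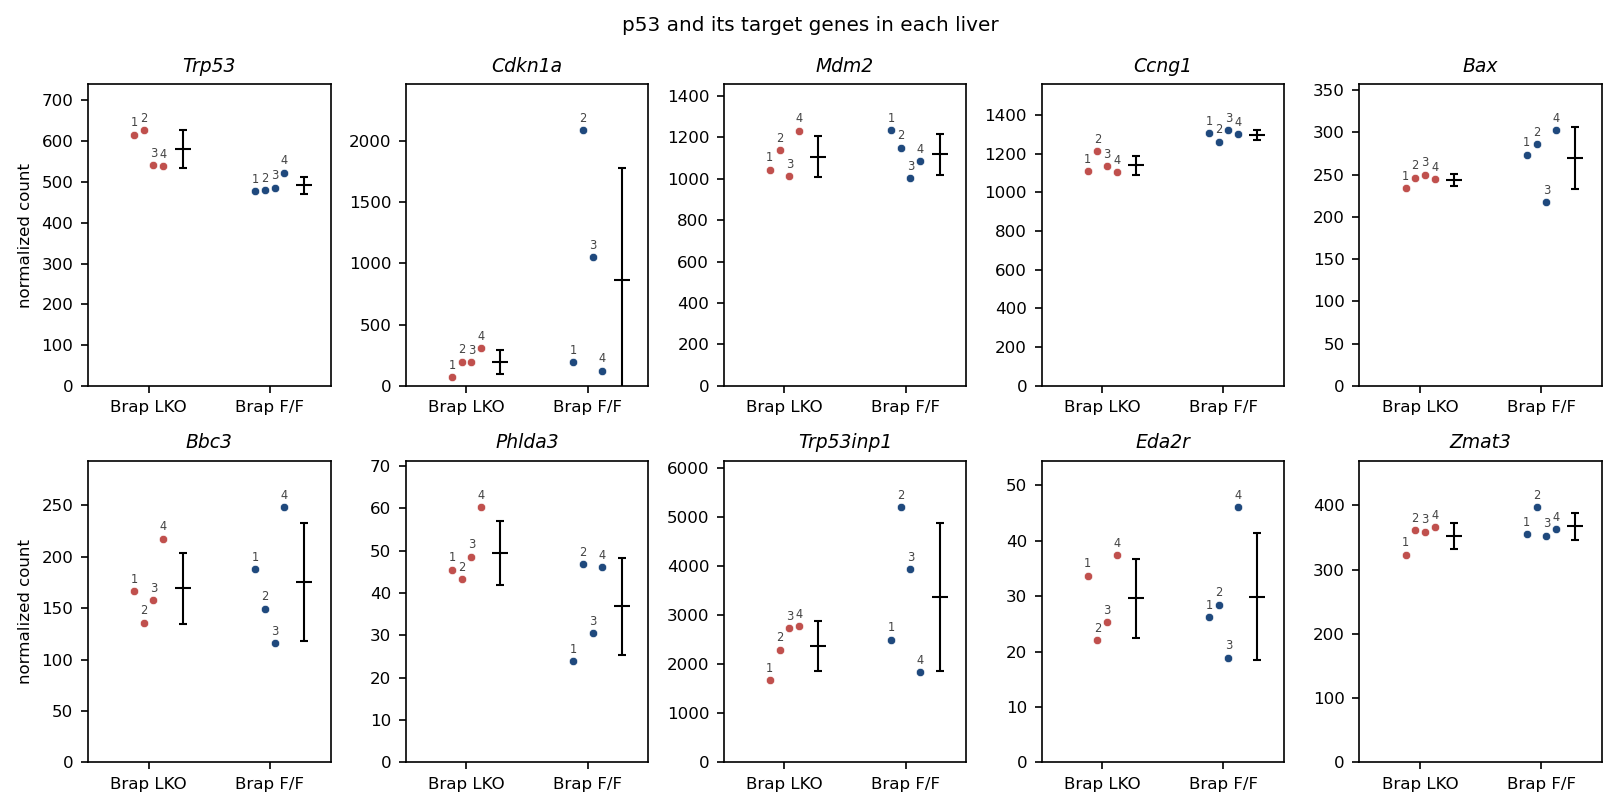
Normalized counts (y axis, linear from 0) of the 10 members in each of the 4 Brap LKO (red) and 4 Brap F/F livers (blue), with the replicate number above each point and the mean with its SD (n = 4) beside the points. Cdkn1a ran from 124 to 2085 within the Brap F/F group, where the lower end of the SD bar falls below the axis, whereas Ccng1 stayed between 1103 and 1319 in all 8 livers.

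Trp53 itself (chr11:69580359-69591873, + strand, 11 exons in its longest coding transcript) was at 616, 626, 540 and 539 normalized counts in Brap LKO replicates 1 to 4 and at 478, 479, 486 and 523 in Brap F/F replicates 1 to 4. Every Brap LKO liver lay above every Brap F/F liver, by a margin that was narrow between the lowest Brap LKO and the highest Brap F/F liver. The log2 fold change was 0.24 (SE 0.080, 95% confidence interval 0.06 to 0.42), with an adjusted p of 0.207 in limma. The exact two-sided permutation test gave p = 0.0286, which is the smallest value that 4 livers against 4 can give. When each liver was instead scaled to the same total, the median log2 fold change of all tested genes moved to 0.15, and Trp53 stood at 0.39 with an adjusted p of 0.0497 in limma. Under that scaling 479 of the 15352 tested genes passed, 459 of them higher and 20 lower in Brap LKO livers, beside 118 in the main fit. The mouse genome also holds a processed pseudogene, Trp53-ps, and how reads shared with it were counted is not given in the sources used here.

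In bulk tissue, a different number of cells of a type and a different amount of RNA per cell cannot be told apart. Markers of other liver cells were mostly higher in the same group as Trp53. All 10 macrophage markers had a positive log2 fold change (median 0.47), and their summed level was 6321 to 11546 normalized counts in Brap LKO and 6344 to 8848 in Brap F/F livers. Lymphocyte markers were also positive in 10 of 10 (median 0.65), with sums of 421 to 643 and of 285 to 402, and cholangiocyte markers in 8 of 8 (median 0.83), with sums of 2132 to 4052 and of 1360 to 2286. For stellate cells and fibroblasts 9 of 10 were positive (median 0.44), with sums of 8316 to 12514 and of 5526 to 9480, and for endothelium 8 of 8 (median 0.22), with sums of 6167 to 9172 and of 5384 to 8034. No marker was at 0 in every liver. Of these 46 genes, Cftr, a chloride channel of bile duct cells (adjusted p = 0.0331, limma), and Pdgfrb, a receptor of stellate cells (adjusted p = 0.0494, limma), passed the threshold, beside 0.769% of all tested genes. Cftr was a low gene with 0 to 19 reads per liver, and Pdgfrb had 186 to 578. The genes with the smallest p in the other lists were Ccr2 for macrophages (adjusted p = 0.0566), Ptprc for lymphocytes (0.103), Kdr for endothelium (0.320) and, among the hepatocyte markers, Tat (0.277, all limma). The part of these cells in the Trp53 values was not tested.

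By their log2 values over the 8 livers, the 3 tested genes most like Trp53 were Ripk2 (r = 0.967), Jarid2 (r = 0.965) and Tbcel (r = 0.963). These correlations describe 8 libraries of 2 groups. Of the other 9 members Phlda3 was the closest to Trp53, at rank 3049 with r = 0.46. That value includes the difference between the groups. For deviations from the group means, Phlda3 and Trp53 had r = -0.07, and Ccng1 was the closest member to Trp53 with r = 0.48.

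Cdkn1a (chr17:29090976-29100727, + strand, 3 exons) encodes p21, the inhibitor of cyclin-dependent kinases through which p53 halts the cell cycle. It was at 70.1, 197, 195 and 310 normalized counts in Brap LKO replicates 1 to 4 and at 196, 2085, 1052 and 124 in Brap F/F replicates 1 to 4. Brap F/F replicates 2 and 3 were far above the other 6 livers, and replicates 1 and 4 of the same group lay within the range of the Brap LKO livers. Its log2 fold change was -1.49 with an SE of 0.85 and a 95% confidence interval from -3.41 to 0.43 (adjusted p = 0.424, limma; exact permutation p = 0.257). The highest Brap F/F liver was 16.9 times the lowest, compared with 4.42 times in Brap LKO. The SD of the log2 values in Brap F/F was 1.93, larger than in 99.7% of all tested genes, whose median SD was 0.22. In Brap LKO it was 0.90, larger than in 97.8%.

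The fitted difference of Cdkn1a depended on single livers. Leaving out Brap F/F replicate 2 gave -0.79 and leaving out Brap F/F replicate 4 gave -2.14, and neither passed (adjusted p = 0.692 and 0.185, limma). With the series of the animal numbers as a covariate it was -0.78 (adjusted p = 0.760, limma). Of the livers in the lower series 3 were Brap LKO and 1 Brap F/F, so the series and the groups are partly confounded. The 3553 exonic bases of Cdkn1a include 273 that are shared with a gene on the opposite strand, and the use of strand in counting is not given in the sources used here.

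Trp53inp1 (chr4:11156431-11174379, + strand), whose product is a stress protein that binds p53 kinases and also acts in autophagy, followed Cdkn1a from liver to liver. Its normalized counts were 1674, 2303, 2739 and 2774 in Brap LKO replicates 1 to 4 and 2503, 5211, 3941 and 1841 in Brap F/F replicates 1 to 4. The same 2 Brap F/F livers were highest, Brap LKO replicate 4 came next and Brap LKO replicate 1 was lowest for both genes. Between the groups the log2 fold change was -0.42 (SE 0.304, 95% confidence interval -1.11 to 0.26, adjusted p = 0.522, limma), and the groups overlapped. Leaving out Brap F/F replicate 2 gave -0.18, leaving out Brap LKO replicate 1 gave -0.26, leaving out Brap F/F replicate 4 gave -0.68, and none of these passed (adjusted p = 0.807, 0.781 and 0.203, limma). Over the 8 livers the log2 values of Trp53inp1 and Cdkn1a had r = 0.981, and their deviations from the group means r = 0.980. Among the 15351 other tested genes, Trp53inp1 ranked 2 in likeness to Cdkn1a, after the small nuclear RNA Rn7sk (r = 0.989) and before Senp2, a SUMO protease (r = 0.976). Rn7sk had low counts in these libraries, with a mean of 6.01 normalized counts in Brap LKO and 16.1 in Brap F/F livers. The libraries were made with an mRNA kit, and how far these counts reflect its level in the liver was not measured.

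**Figure D2:**
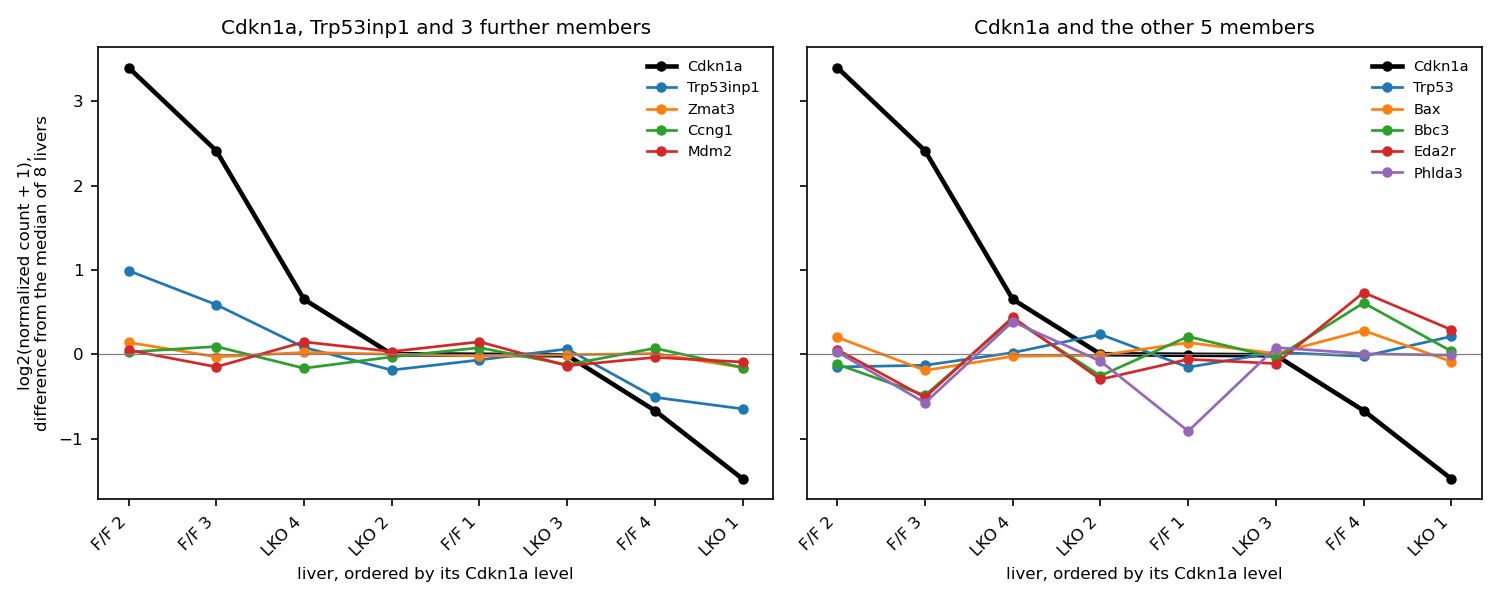
Difference of each member's log2(normalized count + 1) from its median over the 8 livers (y axis), with the livers ordered by their Cdkn1a level (x axis) and Cdkn1a in black in both panels. Trp53inp1 falls along the same order with a smaller slope, whereas Mdm2, Ccng1, Bax and Zmat3 stay close to 0 and Bbc3 and Eda2r have their highest value in Brap F/F replicate 4.

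The other members did not share this pattern to the same degree. Zmat3 had r = 0.73 with Cdkn1a over the 8 livers and Ccng1 0.41, while Mdm2 was at 0.06, Bax at -0.01, Phlda3 at -0.10, Eda2r at -0.43, Bbc3 at -0.49 and Trp53 at -0.65. With Trp53inp1 included, only 4 of the 9 values over the 8 livers were above 0, and their median was -0.01, beside -0.01 for all other tested genes. For deviations from the group means, r with Cdkn1a was 0.67 for Zmat3, 0.28 for Phlda3, 0.03 for Mdm2 and -0.13 for Ccng1. It was -0.32 for Bax, -0.48 for Eda2r, -0.49 for Trp53 and -0.58 for Bbc3. A second pair was formed by Bbc3 and Eda2r (r = 0.915), both highest in Brap F/F replicate 4 and lowest in Brap F/F replicate 3. All of these values are descriptions over 8 livers that share libraries and scaling.

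Genes outside the members that stood high in the same livers as Cdkn1a included p53 targets of metabolism, chosen here after their values were seen. Ddit4, an inhibitor of the mTOR kinase, was at 156, 159, 343 and 183 normalized counts in Brap LKO and at 184, 1012, 429 and 201 in Brap F/F replicates 1 to 4. Lpin1, a phosphatidate phosphatase of fat metabolism, was at 13517, 9562, 17788 and 10422 in Brap LKO and at 8868, 43137, 48236 and 14718 in Brap F/F. Both were highest in Brap F/F replicates 2 and 3. Over the whole list of metabolism and redox targets, the correlation with Cdkn1a had a median of only 0.12 and was above 0 for 9 of 14 genes, with Steap3 at -0.71. For the targets of arrest and feedback the median was -0.50, with 2 of 9 above 0. DNA repair targets had a median of 0.42, with 5 of 6 above 0. Cell death targets had a median of 0.01, with 5 of 10 above 0, from Pmaip1 at -0.54 to Ei24 at 0.936. Secreted and surface targets had a median of -0.22, with 2 of 6 above 0, from Tap1 at -0.90 to Epha2 at 0.925. In 12 genes of the fasting and glucocorticoid response, a list also drawn up after values were seen, the correlation with Cdkn1a had a median of 0.78. It was above 0 for 12 of 12, with the highest value for Fkbp5 (r = 0.922). Over all other tested genes it was above 0 for 7628 of 15351, with a median of -0.01. Because the list was drawn up with values seen, its count is no test. The list correlations are over the 8 livers and include the difference between the groups. Like Cdkn1a, 11 of the 12 fasting genes had a negative log2 fold change. The summed level of the 12 fasting genes was 257219 to 347068 normalized counts in Brap LKO and 332840 to 546862 in Brap F/F livers. None of the 12 passed the threshold between the groups. Cell type markers also varied with Cdkn1a, and the hepatocyte list shares a gene with the fasting list. The marker correlations again include the difference between the groups. The median r was 0.65 for hepatocyte markers (7 of 8 above 0, Tat at 0.903), -0.59 for macrophage markers (0 of 10 above 0), -0.56 for lymphocyte markers (2 of 10), -0.38 for cholangiocyte markers (0 of 8), -0.28 for stellate cell and fibroblast markers (4 of 10) and -0.10 for endothelial markers (3 of 8). The part of the fasting genes and of these cells in the Cdkn1a values was not tested.

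p21 holds back a set of cell cycle genes through the retinoblastoma family. Of 21 such proliferation genes 18 were tested and none passed the threshold, with a median log2 fold change of -0.11. The smallest p belonged to E2f1, a transcription factor of S-phase entry, at 115, 120, 85.0 and 93.6 normalized counts in Brap LKO and 170, 122, 126 and 142 in Brap F/F (log2 fold change -0.44, SE 0.157, adjusted p = 0.235, limma). Their correlation with Cdkn1a over the 8 livers, which includes the difference between the groups, had a median of -0.35 and was above 0 for 4 of 18. Mcm5, a subunit of the replicative helicase that was chosen after its values were seen, was at 306 and 182 in Brap F/F replicates 1 and 4, at 40.7 and 46.3 in replicates 2 and 3, and between 59.7 and 98.8 in the Brap LKO livers. The 2 Brap F/F livers that were highest in Cdkn1a were thus the lowest of all 8 in Mcm5. Other genes of the list went the other way, with Birc5 at r = 0.37 with Cdkn1a. The part of p21 in the levels of these genes was not tested.

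Mdm2 (chr10:117688875-117710758, - strand), the target that degrades p53 and the most direct feedback in the pathway, was among the steadiest members. It was at 1044, 1137, 1012 and 1231 normalized counts in Brap LKO and at 1233, 1150, 1003 and 1084 in Brap F/F replicates 1 to 4. The groups covered nearly the same range, and the log2 fold change was -0.01 (SE 0.089, 95% confidence interval -0.21 to 0.19, adjusted p = 0.949, limma). The tested genes most like it were Gm20604 (r = 0.953), Inhbc, a liver activin subunit (r = 0.944), and Scoc (r = 0.943).

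Ccng1 (chr11:40748552-40755311, - strand), which encodes cyclin G1, a partner of the phosphatase that activates MDM2, was at 1110, 1211, 1136 and 1103 normalized counts in Brap LKO and at 1307, 1261, 1319 and 1301 in Brap F/F. Here every Brap LKO liver was below every Brap F/F liver. The log2 fold change was -0.19 (SE 0.059, 95% confidence interval -0.32 to -0.05), and it missed the threshold (adjusted p = 0.180, limma; exact permutation p = 0.0286, the smallest possible). When each liver was scaled to the same total, the value was -0.03 (adjusted p = 0.819, limma), so it depends on the scaling. Ccng1 was the least variable member in Brap F/F, where only 0.730% of the tested genes had a smaller SD of their log2 values. The related Ccng2 had the smallest p among the paralogs of the members, with a log2 fold change of -0.35 (SE 0.120, adjusted p = 0.218, limma), and none of the 8 tested paralogs passed.

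A pair of members acts in apoptosis at the mitochondrion. Bax (chr7:45461697-45466898, - strand), which forms pores in the outer membrane, was at 234, 246, 250 and 244 normalized counts in Brap LKO and at 274, 286, 218 and 302 in Brap F/F. The Brap LKO values were tightly grouped (SD 6.8, n = 4) and lay within the wider Brap F/F range (SD 36.7, n = 4), with a log2 fold change of -0.14 (SE 0.111, adjusted p = 0.574, limma). Leaving out Brap F/F replicate 3 gave -0.24 and leaving out replicate 4 gave -0.08 (adjusted p = 0.299 and 0.748, limma). Bax shares 192 of its 1576 exonic bases with the gene Gm45808 on the same strand. Bbc3 (chr7:16308393-16318205, + strand), which encodes PUMA, a protein that unleashes BAX, was at 167, 136, 158 and 217 in Brap LKO and at 188, 150, 116 and 248 in Brap F/F. Its groups overlapped throughout (log2 fold change -0.01, SE 0.233, adjusted p = 0.982, limma), and the 95% confidence interval from -0.54 to 0.51 leaves room for differences in either direction.

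Phlda3 (chr1:135766119-135769136, + strand), a repressor of AKT signaling, was a low gene with 21 to 58 reads per liver. It was at 45.5, 43.3, 48.6 and 60.3 normalized counts in Brap LKO and at 23.9, 46.8, 30.5 and 46.1 in Brap F/F. Brap F/F replicates 2 and 4 fell among the Brap LKO livers and replicates 1 and 3 below them. Between the groups its log2 fold change was 0.46 (SE 0.242, lower bound of the 95% confidence interval -0.09, adjusted p = 0.391, limma). Without Brap F/F replicate 1 it was 0.27, and with the animal number series as a covariate 0.74 (adjusted p = 0.554 and 0.214, limma).

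Eda2r (chrX:97333840-97377216, - strand), a receptor for ectodysplasin A2, was also low, with 18 to 47 reads per liver. Its values were 33.7, 22.1, 25.3 and 37.4 in Brap LKO and 26.2, 28.5, 18.9 and 46.1 in Brap F/F, so the Brap F/F group spanned the Brap LKO group. Its log2 fold change was 0.03 (SE 0.290, adjusted p = 0.972, limma). In the EDA receptor axis, none of 5 tested genes passed, and the smallest p belonged to the related receptor gene Tnfrsf19, with a log2 fold change of 0.71 (SE 0.214, adjusted p = 0.165, or 0.0498 with the same total per liver, limma). With the same total per liver 479 genes passed in all, beside 118 in the main fit.

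Zmat3 (chr3:32334792-32366014, - strand), an RNA-binding protein that regulates splicing, was at 323, 361, 359 and 366 normalized counts in Brap LKO and at 356, 398, 353 and 363 in Brap F/F. Apart from Brap LKO replicate 1, the Brap LKO livers lay inside the Brap F/F range. Its log2 fold change was -0.06 (SE 0.080, 95% confidence interval -0.24 to 0.12, adjusted p = 0.736, limma).

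**Figure D3:**
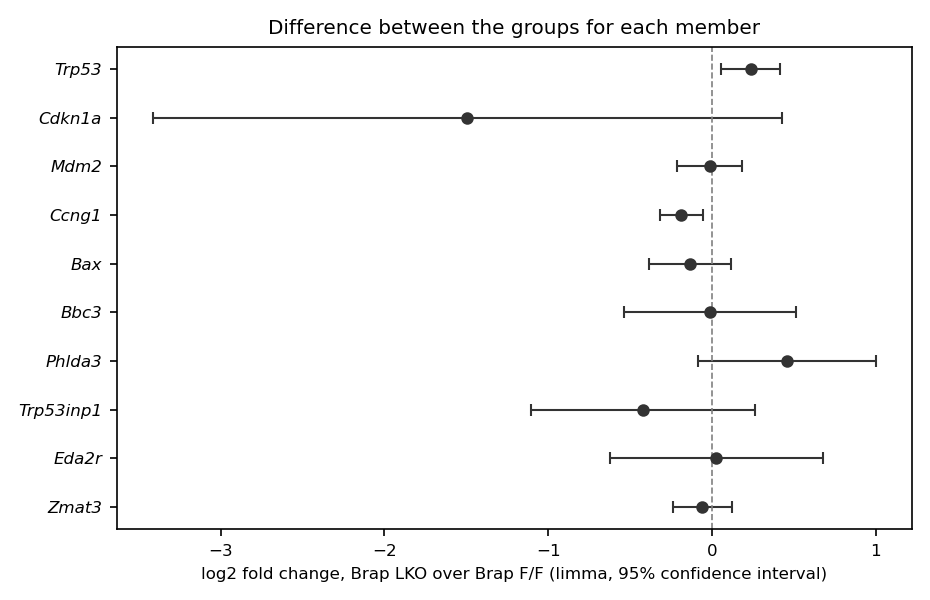
Log2 fold change of each member, Brap LKO over Brap F/F (x axis), as a point with its 95% confidence interval from limma (4 livers per group). The interval of Cdkn1a runs from -3.41 to 0.43, and the intervals of Trp53 and Ccng1 lie on one side of 0, although neither passed after adjustment over all genes.

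Per kilobase of exon, the scale on which genes can be compared, Trp53inp1 and Ccng1 were the most abundant members in Brap LKO livers. Trp53inp1 had 366 ± 79.1 (SD, n = 4) normalized counts per kilobase and Ccng1 325 ± 14.1, which did not differ beyond their spread. Mdm2 followed with 218 ± 19.5, then Bax with 155 ± 4.3 and Trp53 with 143 ± 11.7, which are again within their spread of each other. Bbc3 had 79.8 ± 16.2 and Cdkn1a 54.3 ± 27.6 per kilobase, and Phlda3 (31.7 ± 4.85) and Zmat3 (30.8 ± 1.71) did not differ beyond their spread. Eda2r was lowest, with 5.03 ± 1.21. In Brap F/F livers Cdkn1a had 243 ± 258 per kilobase, so its place in the order differed from liver to liver, while the order of the others was the same apart from Zmat3 (32.1 ± 1.80) standing above Phlda3 (23.6 ± 7.33).

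Further p53 targets were examined in 5 lists with 48 genes in the table, of which 45 were tested. One passed, Perp, beside 0.769% of all tested genes, and the median log2 fold change over the 45 was 0.00. Perp, a tetraspan membrane protein induced by p53 in apoptosis and also needed in desmosomes, fell in Brap LKO livers. Its level was 2387, 2408, 2624 and 2535 normalized counts in Brap LKO and at 3512, 3567, 3663 and 3026 in Brap F/F, with no overlap. This was a log2 fold change of -0.47 (SE 0.075, 95% confidence interval -0.63 to -0.30, adjusted p = 0.0332, limma). Leaving out any 1 liver other than Brap F/F replicate 4 took the adjusted p of Perp above the threshold, to between 0.0716 and 0.128 (limma), and its log2 fold change stayed between -0.53 and -0.43 in all 8 of these fits. Scaling to the same total gave -0.31 (adjusted p = 0.0530, limma) and quantile normalization -0.38 (0.0627), and the call was also lost with the replicate block (0.0634), the animal number series (0.0730) or no mean-variance trend (0.0633), while edgeR and DESeq2 kept it (0.0401 and 1.42e-05).

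By role, targets of arrest and feedback had the highest median log2 fold change, 0.23 over 9 tested genes, and none passed. Plk2, a polo-like kinase induced by stress, had the smallest p, with 442, 430, 351 and 369 normalized counts in Brap LKO and 276, 197, 208 and 317 in Brap F/F (log2 fold change 0.69, SE 0.161, adjusted p = 0.0900, limma). Its groups did not overlap, and DESeq2 gave an adjusted p of 0.00684, and limma with the same total per liver 0.0422. Those settings called 625 and 479 genes in all, beside 118 in the main fit. DESeq2 also called Gadd45a, a growth arrest gene, which was at 190, 167, 73.9 and 138 in Brap LKO and at 54.7, 53.9, 94.6 and 84.4 in Brap F/F (adjusted p = 0.0418 in DESeq2 and 0.199 in limma).

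The 10 cell death targets had a median log2 fold change of -0.12, and Perp was the only one past the threshold. In DNA repair none of 6 passed (median -0.04), with the smallest p for Mgmt, an alkyltransferase (log2 fold change -0.33, SE 0.211, adjusted p = 0.468, limma). In metabolism and redox control none of 14 passed (median -0.06). Ak1, an adenylate kinase, had the smallest p there, at 12.8, 10.2, 22.3 and 20.8 normalized counts in Brap LKO and 1.14, 3.05, 7.36 and 7.85 in Brap F/F (log2 fold change 1.73, adjusted p = 0.148, limma). In Brap F/F replicates 1 and 2 it did not exceed 3 reads (3.42 and 3.05 normalized counts), the upper limit that a count of 0 allows. Among 6 tested secreted and surface targets (median 0.10) none passed, and Thbs1, an adhesion protein of the matrix, had the smallest p (log2 fold change 0.71, SE 0.273, adjusted p = 0.259, limma).

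None of 22 tested regulators and cofactors of p53 passed, with a median log2 fold change of -0.03. The gene with the smallest p was Cdkn2a, the locus that encodes ARF, an inhibitor of MDM2, together with the CDK inhibitor p16. It was low throughout, at 15.5, 11.0, 6.07 and 5.20 normalized counts in Brap LKO and at 1.14, 4.07, 4.20 and 0.981 in Brap F/F (adjusted p = 0.178, limma). The groups did not overlap, but 3 reads, the upper limit that a count of 0 allows, correspond to 2.55 to 3.42 normalized counts, and 2 of the Brap F/F livers were below that.

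**Figure D4:**
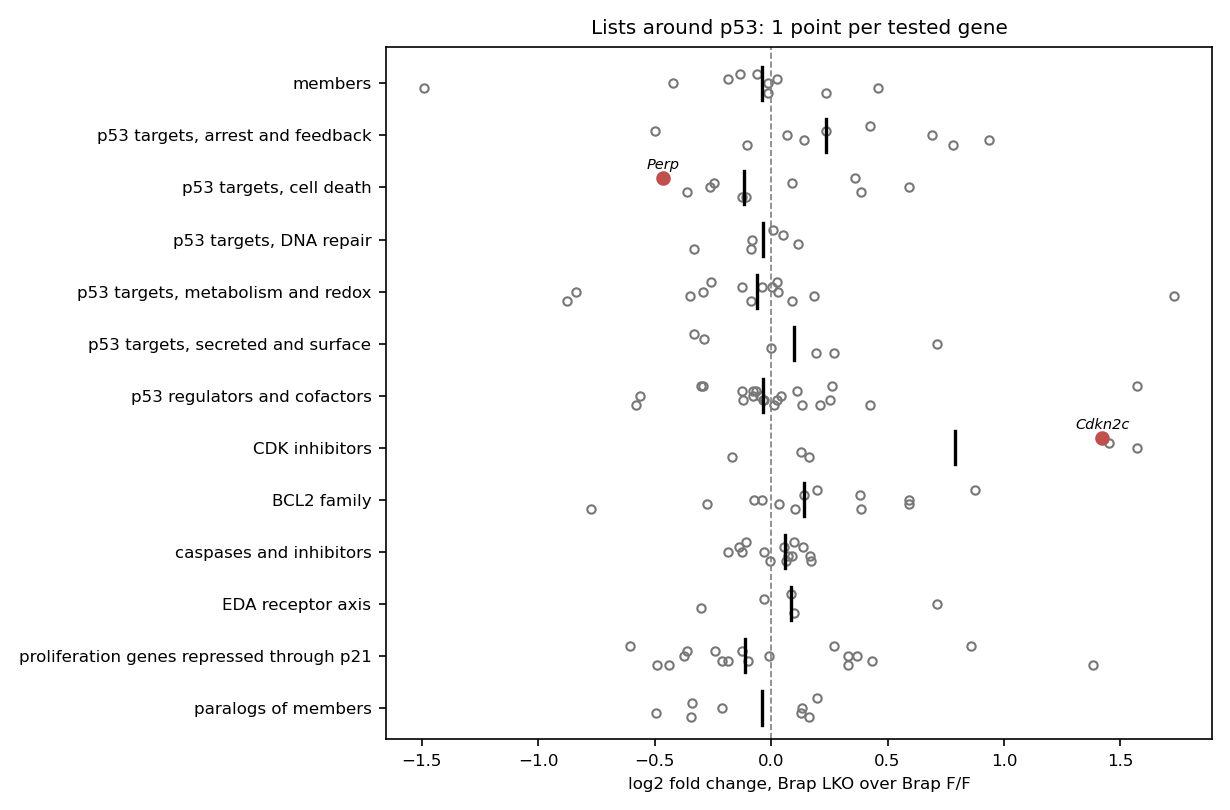
Log2 fold change, Brap LKO over Brap F/F (x axis), of each tested gene (point) in the members and 12 lists around p53, with the median of each list as a black bar and genes past an adjusted p of 0.05 filled in red and named. Perp at -0.47 and Cdkn2c at 1.42 are the filled points, and the median of the members lies at -0.04.

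Among the CDK inhibitors other than p21, a list chosen with earlier results of these data known, 1 of 6 passed, beside 0.769% of all tested genes. Cdkn2c, which encodes p18 and blocks CDK4 and CDK6, rose in Brap LKO livers. Its level was 244, 240, 269 and 223 normalized counts in Brap LKO and at 129, 67.1, 59.9 and 128 in Brap F/F, so that every Brap LKO liver was above every Brap F/F liver. The fitted log2 fold change was 1.42 (SE 0.253, 95% confidence interval 0.85 to 1.99, adjusted p = 0.0446, limma). Within the Brap F/F group replicates 2 and 3, the highest in Cdkn1a, were the lowest in Cdkn2c, and r between the 2 genes over the 8 livers was -0.78. That r includes the difference between the groups. The call was kept without Brap F/F replicate 1 (adjusted p = 0.0499) or 4 (0.0249), and without any 1 of the other 6 livers the adjusted p was between 0.0723 and 0.150 (limma), while the log2 fold change stayed between 1.23 and 1.59 in all 8 fits. The call was also lost with the replicate block (0.0684), the animal number series (0.106), quantile normalization (0.0575), a minimum mean of 20 (0.0505) or no trend (0.0696, adjusted p in limma). The median log2 fold change of the 6 genes was 0.79, beside -0.01 for all tested genes.

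**Figure D5:**
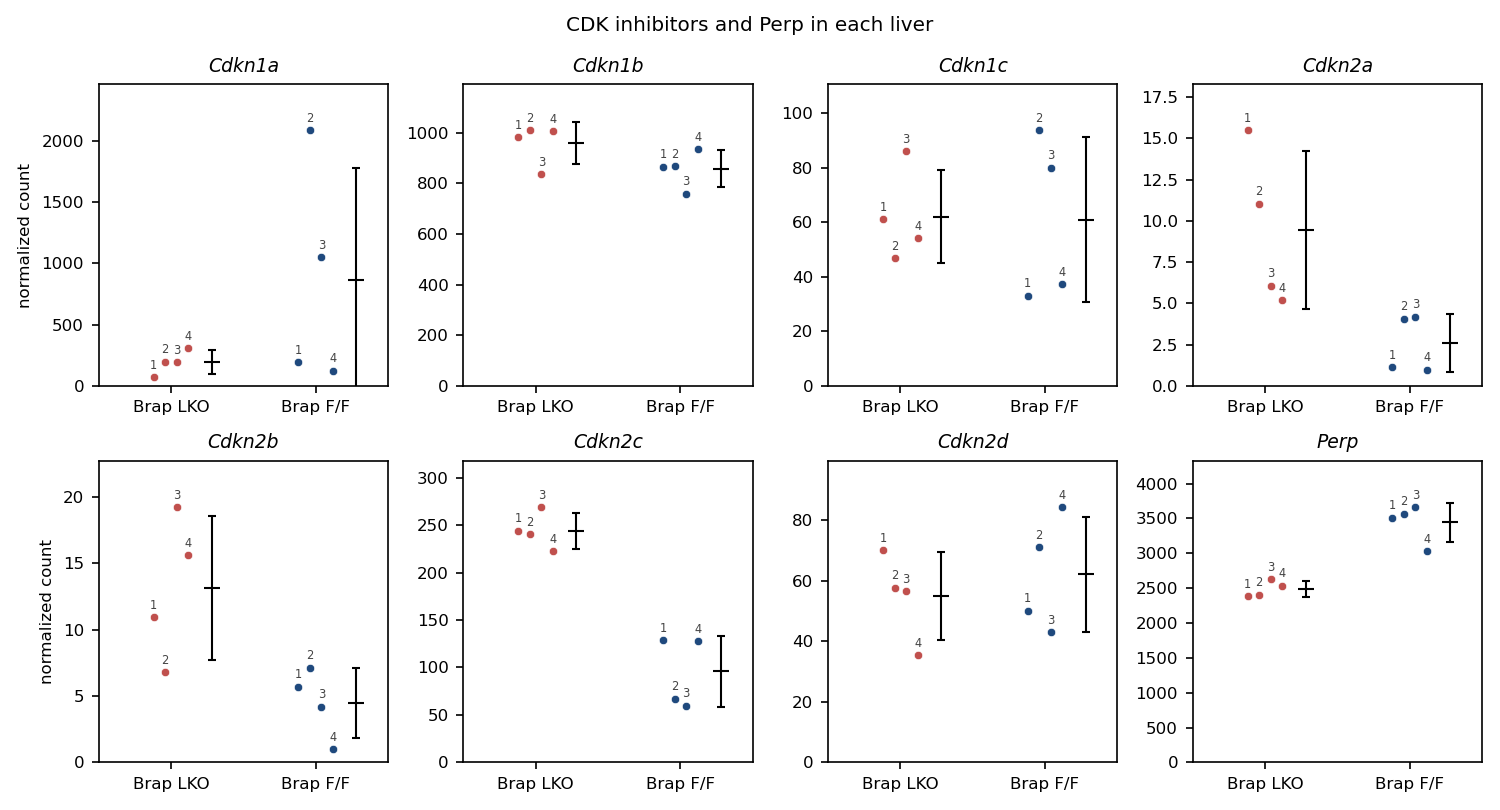
Normalized counts (y axis, linear from 0) of p21 (Cdkn1a), the 6 other CDK inhibitors and Perp in each of 4 Brap LKO (red) and 4 Brap F/F livers (blue), with replicate numbers and the mean with its SD (n = 4). Cdkn2c is at 223 to 269 in Brap LKO and at 59.9 to 129 in Brap F/F livers, and Perp at 2387 to 2624 and at 3026 to 3663.

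In the apoptosis machinery around Bax and Bbc3, none of 13 tested genes of the BCL2 family passed (median log2 fold change 0.14). Bcl2l11, which encodes BIM, had the smallest p, with 402, 382, 380 and 279 normalized counts in Brap LKO and 206, 291, 267 and 195 in Brap F/F (log2 fold change 0.59, SE 0.163, adjusted p = 0.136, limma), and Brap LKO replicate 4 fell within the Brap F/F range. DESeq2 called it (adjusted p = 0.0288), as did limma with the same total per liver (log2 fold change 0.75, adjusted p = 0.0350). Those settings called 625 and 479 genes in all, beside 118 in the main fit. None of 14 caspases and inhibitors passed (median 0.06). The smallest p among them was that of Birc2, an inhibitor of apoptosis, with a log2 fold change of 0.17 (SE 0.066, adjusted p = 0.260, or 0.0418 with the same total per liver, limma).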

How the data were processed

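RNA-seq of 8 livers was used, 4 per group, each mouse a separate library. Per the labels and methods, RNA was extracted with TRIzol, a NuGEN Universal Plus mRNA kit gave the libraries, and single-end reads of 50 bases were checked with FastQC and aligned to mm10 with STAR 2.6.0c. The counting tool, annotation and strand setting are not given in the sources used here. The deposited signal is a normalized count, for which the authors scaled gene reads with DESeq2 size factors. All values (100%, within 0.01 read) were whole multiples of 1 read, so reads were recovered. The authors' own comparison (fold changes and p-values) was not used.

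Genes with a mean of at least 5 were tested with limma 3.58.1 in R 4.3.3 (trend, no covariates) on log2(normalized count + 1). This test was planned because the deposited values were expected to be normalized counts and not reads. On the recovered reads, edgeR 4.0.16 and DESeq2 1.42.0 were alternatives. Further alternatives were other pseudocounts, filters, scalings, weights, a replicate block, the animal number series and leaving out each liver. The folds understate changes of low genes. Exact permutation tests were two-sided over 70 arrangements. Intervals are at 95%, and floors of 3 reads cover counting error only. The members and lists were chosen with earlier results of these data known. Named are all members, in each list the genes past the threshold or else the one with the smallest p, and the 3 genes most like Trp53, Cdkn1a and Mdm2; others were chosen after their values were seen. Positions, exon lengths and overlaps are from GENCODE M21 on GRCm38, the assembly of mm10. Promoter windows are from RefSeq (GRCm38.p6), searched in Python 3.11.15. The limma step was tested on simulated data.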

Additional observations from a re-analysis of the deposited data

Results flagged for a closer look

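Of 24 groups of 4 livers examined for a sample far from the others (the 10 members, Perp and Cdkn2c in each group), 1 was found, and chance gives about 1 in 20. It was Zmat3 in Brap LKO replicate 1, at 323 normalized counts, while the other 3 Brap LKO livers were between 359 and 366. The gap was 0.838 of the range of the group. The same liver was also the lowest of all 8 in Cdkn1a and Trp53inp1. The spread of Cdkn1a in Brap F/F livers did not meet this criterion, because 2 of the 4 livers were high.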

How the results depend on the processing

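Over 22 alternatives the members past the threshold numbered 0 in all but 1, where each liver was scaled to the same total and Trp53 was the 1 call, and p53 regulators and cofactors past it numbered 0 in all. That scaling called 479 of 15352 tested genes, 459 of them higher in Brap LKO livers, beside 118 in the main fit. The median of the members stayed between -0.17 and 0.12. Trp53, Phlda3, Ccng1, Cdkn1a and Trp53inp1 kept their direction in all 22. Values that changed sign, none past the threshold, were, with the same total per liver, Mdm2 (0.14), Bax (0.021), Bbc3 (0.14) and Zmat3 (0.10); with TMM factors, Mdm2 (0.00054) and Bbc3 (0.0015); with quantile normalization, Mdm2 (0.030) and Eda2r (-0.17); for Bbc3, with the series covariate (0.060) and arrayWeights (0.035); and for Eda2r, with DESeq2 (-0.022) and edgeR (-0.0097). Leaving out 1 liver gave -0.068 to 0.034 for Mdm2, -0.19 to 0.17 for Bbc3 and -0.16 to 0.25 for Eda2r. The cause was not tested.

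Further p53 targets past the threshold were 3 with DESeq2 and 2 with arrayWeights, and 0 with the series covariate, without the trend, with quantile normalization or with the replicate block, and 0 to 2 when 1 liver was left out (2 without Brap F/F replicate 4, with Plk2 beside Perp, and 0 without any 1 of the others). Perp and Cdkn2c missed the threshold in 12 and 11 of 22 alternatives, with their direction kept. Genes past the threshold overall were 625 with DESeq2, 479 with the same total, 224 with arrayWeights, 78 with quantile normalization, and 18 to 232 when 1 liver was left out.

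In their deviations from the group means, same-numbered livers of the 2 groups correlated at -0.129, 0.00336, 0.196 and 0.292. Not every liver correlated best with its own number, although Brap LKO replicates 3 and 4 did. These values cannot settle whether the livers were paired, and the labels used here give only a replicate number. The replicate block gave 95 genes past the threshold in place of 118, with 0 members. Phlda3 and Eda2r are the members most limited by depth.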
